A study of Equus caballus with 28 samples.

Results

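Uterine fluid (UF) and endometrium were compared within non-pregnant cycles, so that no conceptus contributed to either sample. The comparison took its members from the sample names: 8 of the 28 miRNA libraries of the series, 4 of UF and 4 of endometrium. Each name carries a replicate number, which was taken as the mare from the study's methods, because the names do not state it. The Warmblood mares had received hCG to time ovulation and were left unbred, and both samples were taken 13 days after ovulation. The same 4 mares and another mare were also sampled 13 days after ovulation in a pregnant cycle, which gave 5 pregnant UF and 5 pregnant endometrial libraries for reference. UF was absorbed on an intrauterine tampon, placed with double gloves against contamination from the vagina, and was recovered by adding sterile water and centrifuging. The biopsy of the endometrium came last, and in pregnant cycles the uterus had been flushed for the embryo before it. Each library was made from 100 ng of total RNA with 18 PCR cycles, but fluid RNA and tissue RNA were extracted with different kits. Kit, sample type and order of sampling therefore cannot be told apart in any difference given here, and a biopsy is a mixture of cell types in which fewer cells of a type and less RNA per cell cannot be told apart.

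MiRNAs are short RNAs that guide Argonaute proteins to complementary sites in mRNAs and lower their translation or stability. In the uterus they are made by the luminal and glandular epithelium, stroma, vessels and resident leukocytes, and epithelia also release them into the lumen in vesicles and protein complexes. Several are strongly tied to a cell type, such as miR-126 in endothelium or the miR-34 and miR-449 family in multiciliated epithelium, so that lists of such markers describe which cellular signatures a fluid or a tissue carries. The prefix eca, for the horse, is left out of the names below, and miRNAs that the prediction software added to the catalogue are written pred-miR with their number. No mature sequences are printed because none were held in the files used here.

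The UF libraries held 174270, 226308, 62087 and 194905 miRNA reads in mares 1 to 4, and the endometrial libraries 61836, 301051, 371630 and 278386. At 3 reads, taken as the floor of detection, this depth corresponded to 10.4 to 56.7 CPM (counts scaled to library size after TMM normalization) in UF and to 10.4 to 40.9 CPM in endometrium. The UF library of mare 3 was the shallowest of its group and stood apart, with a mean correlation of 0.840 with the other UF libraries against 0.880 to 0.904 for the remaining 3.

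After removing low counts, 328 miRNAs could be tested, 242 known and 86 predicted. The filter was mild: a single read stood at 2.69 to 16.2 CPM before TMM scaling, above its limit of 1 CPM. It therefore asked only for a read in at least 4 of the 8 libraries, and the shares below are over this set. Of these, 101 (30.8%) were differentially expressed between cyclic UF and cyclic endometrium in edgeR's quasi-likelihood test (FDR not above 0.05, fold change not below 2). UF was higher for 39 (11.9%) and lower for 62 (18.9%). Values did not overlap between the groups for 96 of the 328 (29.3%). The rule for naming the most changed known miRNAs required this, so their separation is no further result. Known miRNAs leaned towards the tissue, with 20 higher in UF (8.26%) and 60 lower (24.8%), whereas predicted miRNAs leaned towards the fluid, with 19 higher and 2 lower. The 60 lower known ones included 24 on the list of a single imprinted locus, DLK1-DIO3. With filterByExpr, a stricter count filter of edgeR, 179 miRNAs were tested and 72 were differentially expressed. Of the 156 known ones among the 179, 23 were higher and 36 lower. The predicted miRNAs include near-identical copies, and counted by group of copies 9 groups were higher and 1 was lower of the 45 tested. The median log2 fold change over all 328 was -0.24 with TMM scaling and -0.04 with DESeq2's size factors, so small values are no departure from the bulk of miRNAs. Without the shallowest library of each group, 88 miRNAs were differentially expressed, 28 known ones higher in UF and 44 lower, with 16 predicted ones higher and 0 lower.

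The fluid carried fewer kinds of known miRNA than the tissue. With every library thinned to the depth of the smallest, 183, 184, 167 and 186 known miRNAs had at least 1 read in the UF of mares 1 to 4, against 206 to 224 in the endometrium. All 4 UF libraries lay below all 4 endometrial ones, with means of 180.0 ± 8.76 and 215.5 ± 8.85 (SD, n = 4 each; exact two-sided permutation test, p = 0.0286, the smallest that 4 against 4 libraries can give). This test treats the libraries as unpaired, and permuting within the 4 mares could not give a two-sided p below 0.125, here or for the shares of reads. The 10 most abundant miRNAs took 68.9% ± 4.86 of UF reads and 69.8% ± 2.39 of endometrial reads (n = 4 each; exact permutation test, p = 0.743). This rested on the UF of mare 3, at 76.1%: the other 3 fluids lay below every endometrial library, and without mare 3's fluid the difference was -3.30 percentage points (exact permutation test, p = 0.0571, the smallest that 4 against 3 can give). Predicted miRNAs took a larger share of reads in UF, 1.97% ± 0.942 against 0.911% ± 0.0664 (n = 4 each; exact permutation test, p = 0.0286). The highest UF share, 3.36%, was that of mare 3, and the other 3 lay between 1.34% and 1.72%, above the endometrial maximum of 0.980%. These shares count near-identical copies separately. With copies counted once they were 0.844% ± 0.269 in UF and 0.476% ± 0.0303 in endometrium (exact permutation test, p = 0.0286).

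The most abundant miRNAs were the same in fluid and tissue. Let-7a, let-7c, miR-21, miR-26a and miR-10a held the 5 highest ranks, in this order, in both groups, and none of the 5 was differentially expressed. Let-7a, a member of the let-7 family that restrains proliferation and marks differentiated cells, took 17.2% ± 6.32 of UF reads and 19.0% ± 0.904 of endometrial reads. Its level was 130109, 105736, 312485 and 146765 CPM in the UF of mares 1 to 4 and 152926, 194686, 262591 and 197649 CPM in the endometrium (log2 fold change -0.22 ± 0.33 SE, FDR 0.673). The groups overlapped, and the direction turned under some other scalings and filters. MiR-21, abundant in secretory and inflamed epithelia, had a log2 fold change of -0.37 ± 0.29 (FDR 0.390), and for miR-26a it was -0.61 ± 0.27 (FDR 0.102). Below this shared top the ranking by mean TMM-normalized CPM diverged: miR-92b was 8th and miR-449a 9th in UF but 51st and 29th in endometrium, and miR-10b was 6th in endometrium but 56th in UF.

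Markers of ciliated epithelium were higher in the fluid. MiR-34 and miR-449 belong to a family that promotes the formation of motile cilia and is enriched in multiciliated cells of the oviduct, uterus and airways. Of the 5 tested members of the list, 4 were higher in UF, 0 were lower and 1 did not pass the test, against 8.26% of known miRNAs higher. The median log2 fold change was 2.03 against -0.24 for all miRNAs tested. The summed level of the list was 46940, 40870, 52950 and 75920 CPM in UF of mares 1 to 4 and 16760, 13820, 3760 and 11980 CPM in endometrium. The lowest fluid was well above the highest biopsy, and the endometrium of mare 3 was the lowest library.

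MiR-449a, the most abundant member, stood at 28867, 25453, 26069 and 35960 CPM in UF of mares 1 to 4 and at 11325, 7964, 1790 and 7408 CPM in endometrium. Every UF library was above every endometrial one, and the fluids were far more alike than the biopsies (log2 fold change 2.03 ± 0.43, a 4.09-fold difference, FDR 0.00207). MiR-34c rose from 4007, 4015, 1514 and 3505 CPM in endometrium to 9837, 13621, 16000 and 30955 CPM in UF (2.43 ± 0.42, FDR 0.000463). The endometrium of mare 3 was the lowest for both. MiR-449b, next to miR-449a in the genome, had 583, 303, 208 and 371 CPM in UF and 81.8, 93.8, 10.5 and 63.3 CPM in endometrium (2.59 ± 0.65, FDR 0.00626).

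The arms of miR-34b were less even. MiR-34b-3p had 7335, 623, 9823 and 7594 CPM in UF of mares 1 to 4, against 518, 854, 122 and 402 CPM in endometrium. The UF of mare 2 lay within the endometrial range while the other 3 were about an order of magnitude above it (3.74 ± 0.73, FDR 0.00109). MiR-34b-5p differed by 1.74 ± 0.58 (FDR 0.0304), a call that was lost when the endometrium of mare 2, 3 or 4 or the UF of mare 4 was left out (FDR between 0.0588 and 0.105). MiR-34a, the p53-responsive member that most tissues express, was level, at 621, 752, 416 and 505 CPM in UF and 613, 799, 272 and 525 CPM in endometrium (0.06 ± 0.46, FDR 0.933).

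The miR-200 family and the miR-183 cluster moved less than the ciliated list. The miR-200 family, which keeps cells epithelial by repressing ZEB1 and ZEB2, had 5 members tested, of which 1 was higher in UF, 0 lower and 4 did not pass the test (median log2 fold change 0.47). Among all known miRNAs tested, 8.26% were higher. MiR-429 was the member that passed, at 3014, 2628, 2097 and 3396 CPM in UF of mares 1 to 4 and 1063, 1299, 712 and 1374 CPM in endometrium (1.32 ± 0.37, FDR 0.0108; 0.0505 without both libraries of mare 4). The most abundant member, miR-200c, had 37837, 24656, 26862 and 33519 CPM in UF and 20497, 25199, 22559 and 20666 CPM in endometrium, with overlap between the groups (0.47 ± 0.27, FDR 0.212). MiR-200a overlapped too (0.70 ± 0.30, FDR 0.0925) and passed the thresholds when the UF of mare 3 (FDR 0.00683) or the endometrium of mare 1 (FDR 0.0174) was left out. Summed over the list, UF ranged from 57200 to 91430 CPM and endometrium from 55100 to 69450 CPM. None of the 3 members of the miR-183 cluster, known from sensory epithelia, passed the test, and miR-182 had a log2 fold change of -0.43 ± 0.41 (FDR 0.453).

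MiR-205 is a marker of squamous and basal epithelium and was higher in UF. It had 1166, 2395, 2040 and 2584 CPM in UF of mares 1 to 4 and 68.1, 274, 17.4 and 209 CPM in endometrium. The lowest fluid was more than 4 times the highest biopsy (3.81 ± 0.68, FDR 0.000488). It is the only entry of the squamous list in the catalogue, and the source of the difference was not tested.

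The largest increase among known miRNAs of at least 100 CPM was that of miR-92b, a member of the miR-25/92 seed family that is encoded apart from the miR-17/92 cluster. Its level was 37886, 6826, 46924 and 27683 CPM in UF of mares 1 to 4 and 2576, 2094, 363 and 1654 CPM in endometrium. No UF library reached down to the endometrial range, although mare 2 was well below the other fluids (4.16 ± 0.63, a 17.9-fold difference, FDR 0.000154). MiR-92a, with the same seed, differed by 0.88 ± 0.35 (FDR 0.0680; with DESeq2 it passed, at an FDR of 0.0323), and the UF of mare 2, at 5959 CPM, was below all endometrial libraries while the other fluids were above them. It passed without that library (FDR 0.0101) and without the endometrium of mare 1 (FDR 0.0241). Of the 13 tested members of the miR-17/92 and related families, which drive proliferation, miR-92b alone passed the test in UF, 0 were lower, and the median log2 fold change was 0.69. For comparison, 8.26% of known miRNAs were higher. Without the shallowest library of each group 6 of the 13 passed, all higher in UF, among them miR-92a (FDR 0.0398) and miR-93 (FDR 0.0198).

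Several further miRNAs were enriched in the fluid. MiR-221 and miR-222, a neighbouring pair that represses the cell-cycle inhibitor p27, were both higher. MiR-221 had 9025, 11428, 12562 and 14980 CPM in UF of mares 1 to 4 and 4756, 4807, 4814 and 7437 CPM in endometrium (1.14 ± 0.31, FDR 0.00994). MiR-222 had 1891, 968, 2021 and 2158 CPM in UF and 572, 559, 492 and 737 CPM in endometrium (1.57 ± 0.40, FDR 0.00670). Both pairs of groups were separate, as were those of 29.3% of all miRNAs tested.

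MiR-211, an intronic miRNA of the melastatin gene TRPM1 studied mostly in pigment cells, had 561, 143, 1115 and 381 CPM in UF and 68.1, 86.8, 133 and 101 CPM in endometrium (2.45 ± 0.62, FDR 0.00626). Its family member miR-204b did not pass the test (-0.08 ± 0.32, FDR 0.874). MiR-1180 was higher in UF by 2.17 ± 0.49 (FDR 0.00315), with endometrial values from 241 to 563 CPM and UF values from 641 to 2599 CPM. MiR-190b was higher by 1.64 ± 0.51 (FDR 0.0223), but with the mare as a block its FDR was 0.0558, and without the endometrium of mare 2 or 3 it was 0.0502 or 0.0607. MiR-132, a CREB-induced miRNA, was higher by 2.12 ± 0.71 (FDR 0.0335), and this call was lost without the UF of mare 1 (FDR 0.0707) and without the endometrium of mare 3 (FDR 0.0541) or mare 4 (FDR 0.0968).

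**Figure D1:**
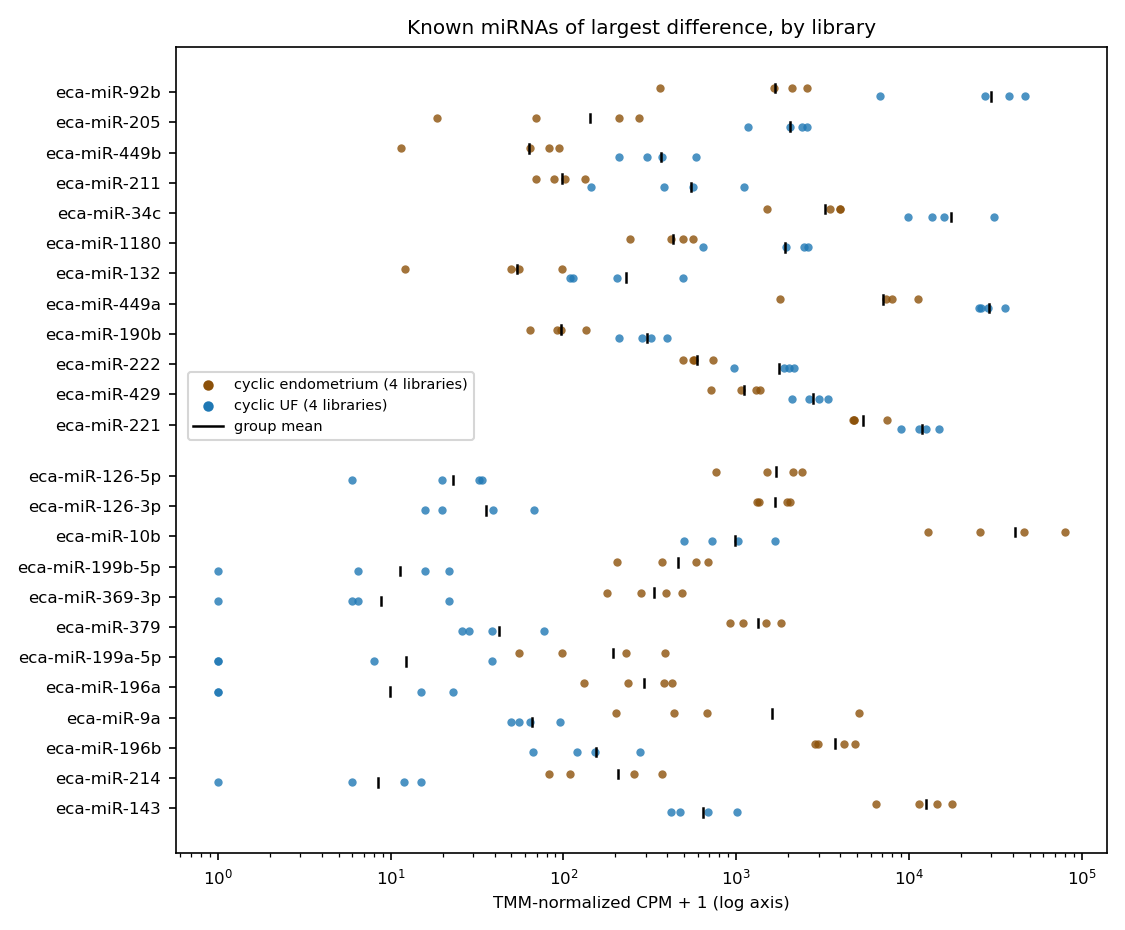
The 12 known miRNAs of largest increase and the 12 of largest decrease in cyclic UF, among those with at least 100 CPM in the higher group and no overlap between groups; each point is a library, on a log axis of TMM-normalized CPM plus 1, and black bars are group means. The UF points lie to the right of the endometrial ones in the upper block, as for miR-92b at 6826 to 46924 against 363 to 2576 CPM, and to the left in the lower block, where 5 miRNAs include UF libraries at 0.

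Endothelial markers were the most depleted in the fluid. MiR-126 is encoded in an intron of EGFL7, is expressed by endothelial cells and supports their response to VEGF. MiR-126-5p had 32.7, 31.3, 18.9 and 4.95 CPM in UF of mares 1 to 4 and 763, 2146, 2417 and 1512 CPM in endometrium (-6.20 ± 0.65, a 73.8-fold difference, FDR 1.00e-05). MiR-126-3p had 38.1, 66.1, 18.9 and 14.9 CPM in UF and 1363, 1980, 2037 and 1318 CPM in endometrium (-5.47 ± 0.57, FDR 1.00e-05). These UF values came from 17 and 30 reads over the 4 libraries, and in mares 3 and 4 they stood at or below the 3-read level of the library.

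Markers of smooth muscle and mesenchyme followed. MiR-143 and miR-145, a pair that maintains the contractile state of smooth muscle, were both lower in UF. MiR-143 had 687, 1006, 472 and 421 CPM in UF of mares 1 to 4 and 6446, 14595, 17714 and 11512 CPM in endometrium (-4.27 ± 0.44, FDR 1.00e-05). The highest fluid was far below the lowest biopsy. All 5 tested members of the mesenchymal miR-199 and miR-214 list were lower, against 24.8% of known miRNAs, with a median log2 fold change of -4.44. The list summed to between 453 and 1970 CPM in UF and between 13960 and 25370 CPM in endometrium.

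Its most abundant member, miR-199a-3p, had 463, 964, 208 and 441 CPM in UF and 6814, 12021, 11246 and 7057 CPM in endometrium (-4.14 ± 0.48, FDR 1.22e-05). Its counts were almost those of miR-199b-3p, so both entries describe a single measurement. MiR-199b-5p (-5.15 ± 0.72, FDR 9.94e-05), miR-214 (-4.44 ± 0.77, FDR 0.000463) and miR-199a-5p (-4.84 ± 1.04, FDR 0.00213) had UF totals of only 10, 7 and 4 reads.

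Among the 27 tested miRNAs on the list of the imprinted DLK1-DIO3 locus, a maternally expressed cluster active in stroma, muscle and placenta, 24 were lower in UF, 0 were higher and 3 (miR-376b, miR-380 and miR-410) did not pass the test. Over all known miRNAs tested, 24.8% were lower. Of 48 entries in the catalogue, 39 had a read in at least 1 of the 8 libraries, and these held 6531 endometrial reads but 294 UF reads. A member could pass the filter through the tissue alone, so the 24 are no share of the whole locus. Summed over the list, the level was 458, 550, 189 and 208 CPM in UF of mares 1 to 4 and 4293, 8232, 8501 and 5247 CPM in endometrium. Without the shallowest library of each group 15 of the 20 that could then be tested were lower, and without the UF of mare 3 it was 19 of 27. With the mare as a block 19 of 27 were lower, and with DESeq2 17. The list leaves out miR-485, which lies in the same cluster: miR-485-3p was lower in UF (-3.22 ± 0.69, FDR 0.00213), and miR-485-5p did not pass the test (-2.34 ± 0.93, FDR 0.0701). Both were named after their values were seen.

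MiR-379, which opens the distal cluster, had 27.2, 76.6, 37.8 and 24.8 CPM in UF and 1090, 1487, 1824 and 920 CPM in endometrium (-4.94 ± 0.56, FDR 1.22e-05). MiR-127, transcribed antisense to RTL1, had 169, 157, 18.9 and 34.7 CPM in UF and 872, 2150, 2791 and 1732 CPM in endometrium (-4.22 ± 0.65, FDR 0.000174). The groups of both were separate by a wide margin. MiR-369-3p (-5.00 ± 0.73, FDR 0.000116), miR-411 (-4.26 ± 0.58, FDR 8.96e-05) and miR-409-3p (-3.39 ± 0.54, FDR 0.000242) were also lower in every UF library than in any endometrial one. For miR-369-3p the naming rule required this.

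MiRNAs of the HOX clusters split. MiR-10b, lying within the HOXD cluster, had 719, 1678, 1020 and 500.0 CPM in UF of mares 1 to 4 and 12879, 25987, 79870 and 46475 CPM in endometrium (-5.40 ± 0.59, a 42.1-fold difference, FDR 1.08e-05). MiR-10a, lying within HOXB, had 39461, 28938, 44638 and 32915 CPM in UF and 26630, 37852, 83498 and 77367 CPM in endometrium, so that its groups overlapped (-0.63 ± 0.36, FDR 0.208). MiR-196b, of the HOXA cluster, was lower in UF (-4.59 ± 0.50, FDR 1.08e-05), at 65.4, 278, 151 and 119 CPM against 2985, 4241, 4849 and 2871 CPM. MiR-196a was lower too (-4.71 ± 0.83, FDR 0.000470), with 8 UF reads in all and none in mares 3 and 4.

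In the list of miR-10, miR-99, miR-100 and miR-125 as a whole, 4 of 8 tested members were lower in UF and 0 were higher, against 24.8% of known miRNAs lower, and the median log2 fold change was -1.42. MiR-99a (-3.14 ± 0.71, FDR 0.00315), miR-100 (-3.97 ± 0.80, FDR 0.00156) and miR-125b-5p (-2.04 ± 0.47, FDR 0.00361) were the other members that passed. The let-7 family gave no call among 7 tested. MiR-9a, known best from neural progenitors, was lower in UF (-4.69 ± 0.91, FDR 0.00112). Its endometrial values of 681, 434, 5170 and 201 CPM were drawn up by mare 3, without which the log2 fold change was -2.58 and still past both thresholds.

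Erythroid miRNAs, which report blood in a sample, were lower in the fluid. All 3 that could be tested fell on that side, against 24.8% of known miRNAs. The fourth entry, miR-144, had 85 endometrial reads and 0 UF reads and did not pass the filter. MiR-486-3p lost its call with thinned libraries (-0.95, FDR 0.294) and without both libraries of mare 4 (FDR 0.0520). MiR-451 had 98.1, 432, 18.9 and 94.1 CPM in UF of mares 1 to 4 and 1458, 4672, 2163 and 2495 CPM in endometrium (-3.99 ± 0.70, FDR 0.000463). MiR-486-5p had 1172, 1803, 1341 and 1000 CPM in UF and 3966, 9166, 6910 and 5933 CPM in endometrium (-2.29 ± 0.37, FDR 0.000278). Mare 2 had the highest value of both in each sample type. The list summed to between 1109 and 2252 CPM in UF and between 5479 and 14120 CPM in endometrium.

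Leukocyte miRNAs did not separate fluid from tissue as a list. Of 7 tested, 0 were higher in UF, 1 was lower and 6 did not pass the test, against 8.26% of known miRNAs higher and 24.8% lower. The summed level overlapped, at 1711 to 3665 CPM in UF and 2194 to 4633 CPM in endometrium. MiR-155, induced in activated lymphocytes and macrophages, had a log2 fold change of -0.69 ± 0.39 (FDR 0.201), and for miR-146a, an inhibitor of NF-kB signalling, it was 0.47 ± 0.57 (FDR 0.584). MiR-223, the neutrophil miRNA, had 120, 73.1, 1039 and 79.2 CPM in UF of mares 1 to 4 and 109, 830, 167 and 201 CPM in endometrium (-0.10 ± 0.87, FDR 0.948). A single library of each group stood far above the rest, and they came from different mares. Without both libraries of mare 3 the log2 fold change was -2.02 (FDR 0.0336). The call of miR-146b-5p (-1.76 ± 0.63, FDR 0.0447) was lost without the endometrium of mare 4, which held 1456 CPM against 271 to 331 CPM in the other 3 (FDR 0.367). With the mare as a block it was lost as well (FDR 0.107), as with DESeq2 (FDR 0.0652).

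Markers foreign to both samples had few reads. MiR-122 of liver had 13 endometrial and 6 UF reads. Of the 8 early-embryo entries (the miR-302/367 and miR-371/372 clusters), 6 had a read, with 6 reads in all in endometrium and 7 in UF. The muscle miRNAs comprised 23 endometrial reads and 1 UF read, and the call of miR-1 (FDR 0.0170; 21 against 1 read) was lost with DESeq2 (FDR 0.134), with the mare as a block (FDR 0.0707) and without the UF of mare 1 (FDR 0.0707) or mare 4 (FDR 0.0745). The ratio of its summed reads, per total reads, was 13.6 with a 95% counting interval from 2.19 to 564.

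**Figure D2:**
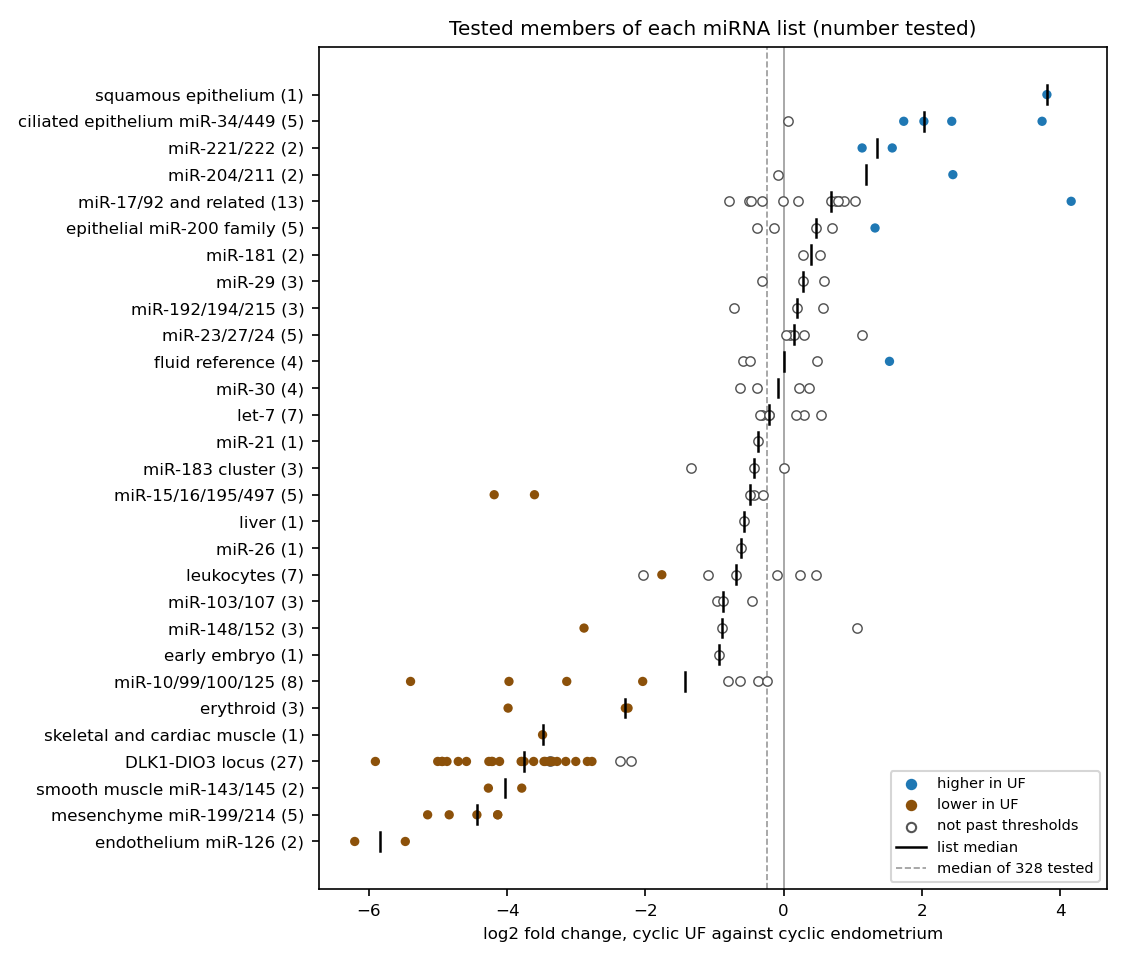
Log2 fold changes of cyclic UF against cyclic endometrium for the tested members of each of 29 lists, ordered by list median (black bars), with the number tested in brackets; filled points passed both thresholds, open points did not, and the dashed line is the median of all tested miRNAs, -0.24. Lists run from miR-205 at 3.81 and the ciliated list at 2.03 to the mesenchymal and endothelial lists at -4.44 and -5.84.

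Most families that are broadly expressed gave few or no calls. None of the tested members of the miR-30, miR-23, miR-27, miR-24, miR-29, miR-181, miR-103, miR-107, miR-192, miR-194 and miR-215 families passed the test. MiR-30d (0.23 ± 0.29, FDR 0.592), miR-27b (0.16 ± 0.31, FDR 0.743), miR-181a (0.52 ± 0.31, FDR 0.229) and miR-103 (-0.96 ± 0.41, FDR 0.0925) were members of these families. MiR-181a passed without the endometrium of mare 1 (FDR 0.0492), and miR-103 without the UF of mare 2 (FDR 0.0467). Of the miRNAs that are often used as references in body fluids, miR-191a (0.49 ± 0.36, FDR 0.352), miR-16 (-0.49 ± 0.36, FDR 0.352) and miR-423-3p (-0.59 ± 0.43, FDR 0.350) did not pass, and miR-423-5p did (1.53 ± 0.47, FDR 0.0218), though not without the endometrium of mare 4 (FDR 0.0761). In the family of miR-15, miR-16, miR-195 and miR-497, 2 of 5 tested members were lower in UF, against 24.8% of known miRNAs. They were miR-195 (-4.19 ± 0.68, FDR 0.000278) and its neighbour in the genome, miR-497 (-3.60 ± 0.75, FDR 0.00186). MiR-148a, of the miR-148 and miR-152 family, was lower in UF (-2.89 ± 0.48, FDR 0.000371), and miR-148b-3p had a log2 fold change of -0.90 ± 0.38 (FDR 0.0922).

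Closely related miRNAs were then compared by the ratio of their reads. A ratio within a library does not depend on the scaling between libraries. The log2 ratio per library is given for 10 pairs that were chosen after their values had been seen, as a description with no test. The ratio of miR-10b to miR-10a was -5.34 ± 0.856 in UF and -0.60 ± 0.412 in endometrium. That of miR-92b to miR-92a was 0.97 ± 0.570 in UF and -2.43 ± 1.36 in endometrium, so that miR-92b was the more abundant of the pair in all 4 fluids and the less abundant in all 4 biopsies. For miR-195 to miR-16 it was -7.09 ± 1.16 in UF and -2.86 ± 0.368 in endometrium.

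The ratio of miR-34c to miR-34a rose by 2.27, that of miR-211 to miR-204b by 2.26 and that of miR-148a to miR-148b-3p fell by 1.80. Arms of a single hairpin shifted in a further case: miR-423-5p to miR-423-3p was 1.58 ± 0.578 in UF and -0.50 ± 0.463 in endometrium. In all 7 of these pairs the 4 UF libraries were separate from the 4 endometrial ones. The remaining 3, all of them pairs of arms, overlapped: miR-34b-3p to miR-34b-5p (difference 1.70), miR-126-5p to miR-126-3p (-0.55) and miR-199b-5p to miR-199b-3p (-0.71).

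**Figure D3:**
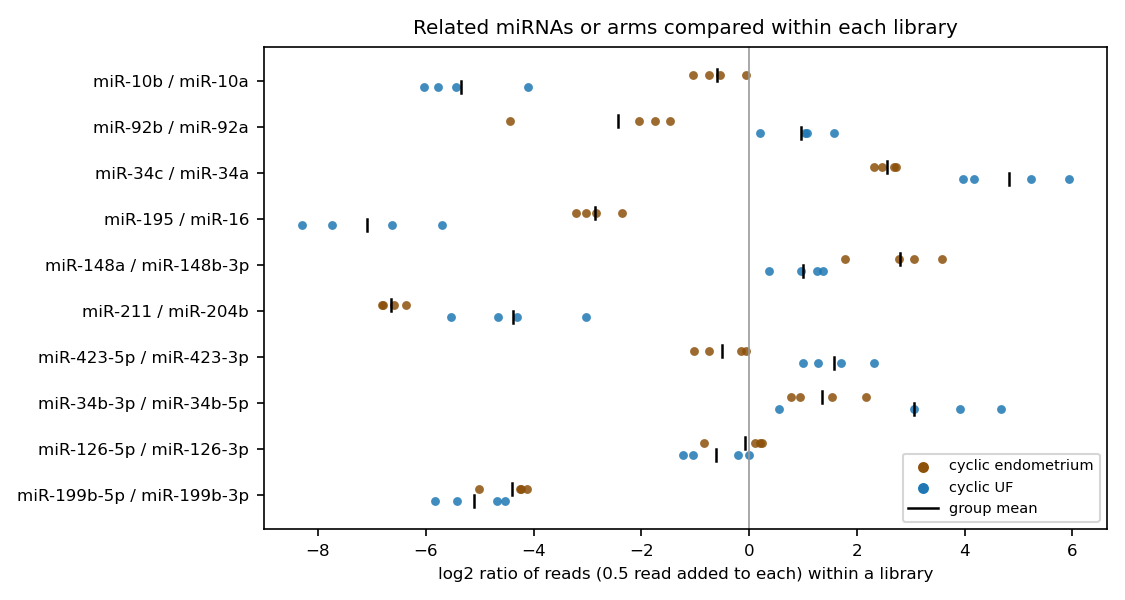
Log2 ratio of reads of 10 pairs of related miRNAs or arms within each library, with 0.5 read added to each; points are the 4 libraries of cyclic endometrium and of cyclic UF, and black bars are group means. The first 7 pairs are separate between the groups, with miR-10b to miR-10a near -5.34 in UF and -0.60 in endometrium, and the last 3 overlap.

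MiRNAs encoded next to each other were compared as groups. RefSeq's horse annotation, used here for neighbourhood only because it belongs to another assembly than the reads were aligned to, placed 616 of the 690 known miRNAs at a single locus, and loci within 10 kb of each other formed 25 groups with at least 2 tested members. Of these, 12 held a differentially expressed miRNA, 15 had all members of the same sign, and 0 held both a miRNA higher in UF and a miRNA lower in UF. Only groups with at least 2 differentially expressed members could have held both, and those of miR-99a, miR-429 and miR-132 had 1 each. No expected share was computed for the 15, many of which are pairs. MiR-34b and miR-34c gave 3 higher of 3 tested, and miR-449a and miR-449b 2 of 2. On the lower side, miR-450b-5p, miR-450c, miR-503 and miR-542-3p gave 4 of 4, and the distal DLK1-DIO3 group, miR-485 included, 17 of 21. Over all known miRNAs tested, 8.26% were higher and 24.8% lower. Neighbours can share a primary transcript and are not independent observations.

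Predicted miRNAs accounted for 19 of the 39 increases. The largest was that of pred-miR-28, which had 469, 167, 2494 and 178 CPM in UF of mares 1 to 4 and 4 reads in all in endometrium (7.38 ± 1.08, FDR 0.000116). Its 4 near-identical copies carry the same counts. Without the UF of mare 3 the log2 fold change was 6.03. Pred-miR-30 had 202, 24.4, 982 and 39.6 CPM in UF and 3 endometrial reads, a ratio of summed reads per total of 53.4 with a 95% counting interval of 17.8 to 263, and without the UF of mare 3 its log2 fold change was 4.67 instead of 6.27. Pred-miR-70 had 16.3, 143, 37.8 and 391 CPM in UF and 1 endometrial read, a ratio of 193 with an interval of 33.9 to 7665. The intervals cover counting error only.

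Dependence on the UF of mare 3 was strong for some predicted miRNAs. Pred-miR-60 and its copy had 1606 CPM there and 0 to 10.9 CPM in the other fluids, against 0 to 17.4 CPM in endometrium, and their call (5.42, FDR 0.0268; with the mare as a block 0.326) became a difference of -0.54 without that library (FDR 0.746). The group of pred-miR-11 had 2985 CPM in it and 79.2 to 421 CPM in the other fluids, and its log2 fold change of 4.55 (FDR 0.00780) became 3.02 (FDR 0.0153). The only group lower in UF, that of pred-miR-79, differed by -1.66 ± 0.58 (FDR 0.0382), and the call was lost with the mare as a block (FDR 0.0810) and in most of the alternatives tried.

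The difference between fluid and tissue was also measured in the pregnant cycles, where a conceptus was present. In a fit of all 18 uterine libraries, 134 of 415 miRNAs (32.3%) were differentially expressed between pregnant UF and pregnant endometrium. All 39 miRNAs that were higher and all 62 that were lower in cyclic UF had the same sign in the pregnant libraries, and 30 and 49 of them passed both thresholds there too. The cyclic and pregnant libraries are separate, but 4 mares gave both. For miR-92b the log2 fold change was 4.49 in cyclic and 4.15 in pregnant mares, for miR-205 4.25 and 4.39, and for miR-449a 2.34 and 2.42. MiR-126-5p gave -5.74 and -4.29, miR-10b -4.89 and -4.09, and miR-127 -3.74 and -3.74.

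A test of whether the contrast between fluid and tissue depended on pregnancy called 0 of 415 miRNAs (edgeR quasi-likelihood test, smallest FDR 0.126). At an unadjusted p under 0.05 there were 26, where a share of 0.05 of the 415 is expected without any difference. DESeq2 also gave 0, with 15 at that p. The edgeR fit had 4 or 5 libraries per group and a coefficient of variation between libraries of 50.9%. Sizeable differences can be missed there, so 0 calls do not show that pregnancy had no effect. In that fit across all miRNAs the smallest FDR belonged to pred-miR-132 and its copy, at 3.38 in cyclic and 0.37 in pregnant mares, and to pred-miR-28 and its copies, at 7.91 and 3.26. With the mare as a block the 5 copies of pred-miR-28 passed, and with edgeR's likelihood ratio test these and the 2 of pred-miR-132 did. For miR-223 the contrast was 0.49 in cyclic and -1.91 in pregnant mares (FDR 0.717), and the UF of mare 3 was the cyclic fluid with a high value.

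**Figure D4:**
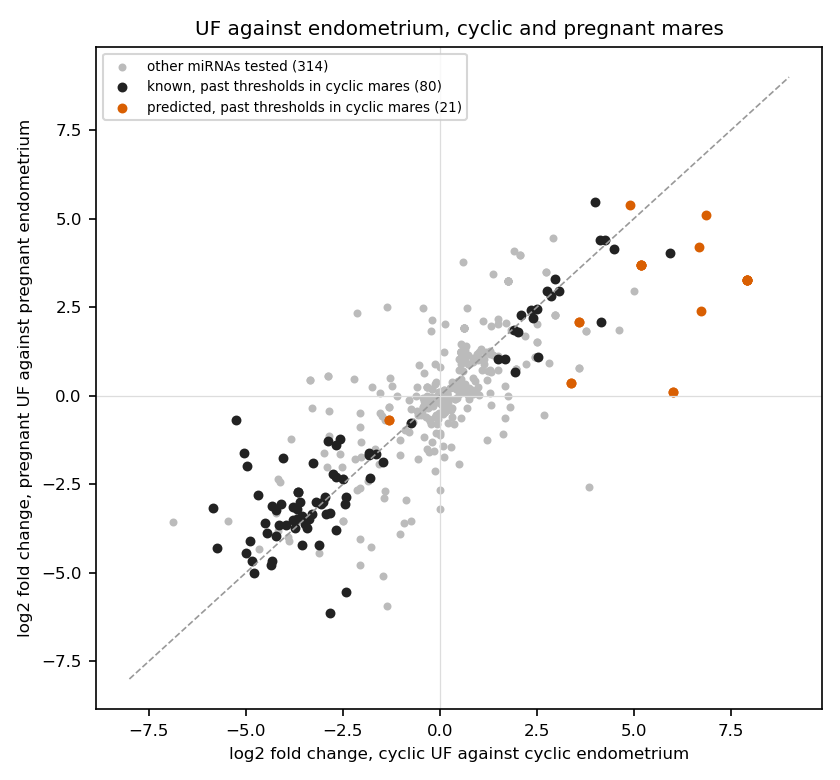
Log2 fold change of UF against endometrium in cyclic mares (horizontal) and in pregnant mares (vertical) for the 415 miRNAs of the fit of 18 libraries; black points are the 80 known and orange points the 21 predicted miRNAs that passed both thresholds in the 8 cyclic libraries, grey points the other 314, and the dashed line marks equal values. All 101 coloured points have the same sign on both axes, and pred-miR-132 (3.38 and 0.37) is far below the line.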

How the data were processed

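Small RNA libraries of uterine fluid and endometrium were sequenced by the authors on a MiSeq, trimmed with cutadapt 1.11 and assigned with miRPro to miRBase miRNAs and to predicted miRNAs on EquCab2.0. The deposited values are raw read counts per mature miRNA, for 690 known and 154 predicted miRNAs, with no normalization. How reads matching several miRNAs were counted is not given in the sources used here. A table of precursors was not used. Reads carry no molecular identifiers, so intervals and floors cover counting error only.

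Groups came from the sample names. Counts were kept where at least 4 of the 8 libraries reached 1 CPM, scaled by TMM and tested with edgeR 4.0.16 (quasi-likelihood test, R 4.3.3) with Benjamini-Hochberg adjustment. Calls needed an FDR not above 0.05 and a fold change not below 2. Single values per library were compared by exact permutation tests. The 18 uterine libraries were fitted together for the difference between cyclic and pregnant mares. DESeq2 1.42.0, other scalings and filters, thinning, merging of near-identical miRNAs (Bray-Curtis distance of at most 0.05), a block for the mare and leaving out libraries were alternatives, and leaving out the shallowest library of each group was chosen after seeing the data. The steps were tested on simulated data.

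Named miRNAs were the 12 most changed known ones per direction among the called, with at least 100 CPM in the higher group and no overlap, the 5 most abundant per group, up to 4 members per list, the 3 most changed predicted groups per direction, and any called for the difference between cycles. MiR-34b-5p, miR-99a, miR-100, miR-497, pred-miR-11, pred-miR-60, pred-miR-132 and those named in the closing observations were added after their values were seen. The members and lists were chosen with earlier results of these data known. The number in the sample name was taken as the mare, from the study's methods and not from a label, so equal numbers pair the samples. Deviations from the group means of a mare's fluid and tissue correlated at -0.00317, 0.123, 0.0730 and -0.0988 in mares 1 to 4. Fluid and tissue of different mares correlated at -0.143 to 0.145, a range that held all the same-mare values.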

Additional observations from a re-analysis of the deposited data

Results flagged for a closer look

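In 164 groups of 4 libraries, 17 held a library whose gap to its nearest neighbour exceeded Dixon's critical value. Chance gives about 8.2 for normally distributed values of groups chosen beforehand. Some groups here belong to miRNAs added after their values were seen. For miR-1, miR-424 and pred-miR-70 the flag rests on a single read. The 17 are therefore listed for inspection, with no conclusion from their number. The UF of mare 3 was the high library for miR-223 (1039 CPM, next 120), pred-miR-28 (2494, next 469), pred-miR-11 (2985, next 421) and pred-miR-60 (1606, next 10.9). It also had the fewest known miRNAs at equal depth (167, next 183) and the largest share of reads on the 10 most abundant miRNAs (76.1%, next 66.9%). The UF of mare 2 was low for pred-miR-79 (27.8 CPM, next 69.3) and, at 3.48 CPM, was the only fluid with a read of miR-1 or of miR-424.

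Among endometrial libraries, mare 3 was high for miR-9a (5170 CPM, next 681) and miR-148b-3p (2634 CPM, next 1747). Mare 4 was high for miR-221 (7437 CPM, next 4814) and miR-146b-5p (1456 CPM, next 331). Mare 2 was high for miR-223 (830 CPM, next 201) and miR-542-3p (115 CPM, next 83.7) and held the single read of pred-miR-70 (3.47 CPM). Mare 1 was low for miR-30d (8491 CPM, next 13500).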

How the results depend on the processing

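Across the alternatives between 70 and 127 miRNAs were called against 101. Of 55 named miRNAs that were called, 43 were called under every alternative that tested them. Among these 43, miR-145, miR-424, pred-miR-28, pred-miR-30, pred-miR-70 and pred-miR-132 were tested in only 21 to 23 of the 24 alternatives. Leaving out libraries gave 70 to 96 calls, 26 to 46 higher in UF and 43 to 55 lower, with the fewest calls in all without both libraries of mare 4 and the fewest higher ones without both of mare 3. Known miRNAs alone gave 22 higher, and the 18 libraries in a single fit gave 64 higher. With filterByExpr, which tested 179 miRNAs, 38 were lower, and 23 known and 11 predicted ones were higher. With the mare as a block 85 were called, all among the 101, and besides those given in the report it changed no other named call. For the difference between cyclic and pregnant mares, 7 passed in the likelihood ratio test and 5 with the mare as a block, all positive, against 0, and leaving out libraries gave 0. The cause was not tested for these or for the reversals below.

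Let-7a turned to 0.085 with DESeq2, 0.0849 with its size factors, 0.14 with filterByExpr, 0.14 with thinned libraries and 0.22 in the fit of 18 (-0.49 to 0.16 when leaving out libraries). MiR-21 turned to 0.0418 in the fit of 18 and 0.25 without the shallowest libraries (-0.62 to 0.0837), and miR-16 to 0.22 without them. MiR-223 turned to 0.41 with DESeq2, 0.35 with its size factors, 0.12 without a filter, 0.29 with filterByExpr, 0.11 with merging, 0.14 with known miRNAs alone, 0.23 thinned and 0.49 in the fit of 18 (-2.02 to 1.35). MiR-204b turned to 0.13 with DESeq2, 0.13 with its size factors, 0.0581 with totals, 0.0773 without a filter, 0.27 with filterByExpr, 0.0152 with merging, 0.0690 with known miRNAs alone, 0.32 thinned, 0.31 in the fit of 18 and 0.34 without the shallowest libraries (-0.32 to 0.34). MiR-34a lay between -0.0016 and 0.62 when leaving out 1 library or 1 mare, and at 0.73 without the shallowest libraries. Pred-miR-60 was -0.50 without the shallowest libraries (-1.02 to 6.70).

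Without thinning UF had 43.75 fewer known miRNAs (difference -43.75, exact p = 0.114). Leaving out a library gave -38.67 to -31.17 for the difference with thinning (-35.5 with all 8), 0.596 to 1.27 percentage points for the predicted share and -3.30 to 0.189 for the share of the top 10, with 0.188 without the UF of mare 4. With 4 against 3 libraries an exact p cannot go below 0.0571. Depth limits miRNAs under 10.4 to 56.7 CPM in UF.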

Other observations

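Further differentially expressed miRNAs, named after their values were seen, included miR-101, which is known to target PTGS2, the inducible prostaglandin synthase. It had 714, 1048, 321 and 802 CPM in UF of mares 1 to 4 and 2317, 3779, 5124 and 2778 CPM in endometrium, with separate groups (-2.27 ± 0.43, FDR 0.000977 in edgeR's quasi-likelihood test). MiR-424 had 70 endometrial reads and 1 UF read, a ratio per total reads of 45.4 with a 95% counting interval of 7.89 to 1820. MiR-542-3p had 84 endometrial and 4 UF reads (-3.93 ± 0.69, FDR 0.000463).

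On the fluid side, miR-95 had 87.2, 80.1, 56.7 and 129 CPM in UF and 0, 17.4, 6.98 and 22.3 CPM in endometrium (2.70 ± 0.68, FDR 0.00626). MiR-197 overlapped between the groups, with the UF of mare 2 at 62.7 CPM inside the endometrial range of 20.9 to 72.9 CPM (1.96 ± 0.64, FDR 0.0293), and its call was lost without the endometrium of mare 3 (FDR 0.0616) or mare 4 (FDR 0.0935).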
